A study of Homo sapiens with 6 samples.

Results

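Amino acid transporters of the families SLC1, SLC3, SLC6, SLC7, SLC15, SLC36, SLC38 and SLC43, with the aromatic amino acid carrier SLC16A10, were looked for by gene symbol among the transcript clusters of Affymetrix Human Gene 2.0 ST arrays (a transcript cluster is the set of probes that measures 1 transcript locus). The rule found 3 rows, against 14884 symbols named in the whole series. SLC38A12 and SLC7A11-AS1 were found through the platform annotation, which gives a symbol to 16098 of the 53617 transcript clusters. SLC6A9 was found only through the study's own list of changed transcripts. That list was drawn from these 6 arrays, so the SAM against Control difference of SLC6A9 is given as a description. The row was part of the fit over all transcript clusters, but no test of it is read as a result. RefSeq holds 67 protein-coding genes that the rule matches. The other 65, which include the SLC3A2 heavy chain, SLC7A5, SLC7A11 and SLC1A5, were not analysed here, and 6 of the 9 families had no named row. This is a limit of the symbols used and not of the arrays. Transcript clusters without a symbol in the annotation can measure such genes, as that of SLC6A9 does. The label of an amino acid transporter group therefore holds for few of these data: SLC7A11-AS1 is a long noncoding RNA gene named for its position on the strand opposite to a transporter, and only SLC6A9 and SLC38A12 encode proteins of the families.

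The arrays carried RNA from MDA-MB-231, a human breast cancer cell line of the triple-negative, mesenchymal kind, grown in DMEM with FBS. A total of 3 arrays came from cells given 200 μM S-adenosylmethionine (SAM), the methyl donor of the cell, and 3 from Control cells, which the sample labels call untreated and the paper calls vehicle-treated. According to the methods the RNA came from independent experiments with this 1 cell line, added SAM being renewed every other day. Values are log2 signal intensities after RMA, so a difference of 1 is a doubling, and they set a gene against itself across arrays, not against another gene. The array medians lay between 4.83 and 4.85 in the SAM arrays and between 4.75 and 4.83 in the Control arrays, and Control replicate 1 correlated least with the other arrays (a mean r of 0.964 over transcript clusters; the 5 others had 0.974 to 0.98). Of the markers of this line, the 5 named by the annotation among those it should express (CD44, VIM, EGFR, ANXA1, AXL) had mean signals of 7.90 to 11.03. The 6 named among those it should lack (ESR1, PGR, ESRP1, GATA3, EPCAM, FOXA1) had 4.12 to 6.54, EPCAM being above 81.2% of transcript clusters. Levels of different probes cannot be ranked, so these values describe the arrays and do not settle the identity of the line.

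Cells take up amino acids through carriers that differ in the ions they couple to and in what they accept. Members of the SLC6 family draw their substrate in with sodium and chloride. SLC38 proteins carry small neutral amino acids or take part in amino acid sensing at the lysosome. SLC7 light chains exchange amino acids across the membrane beside an SLC3 heavy chain. Several of these genes are known targets of ATF4, the transcription factor that the kinase GCN2 brings into play when amino acids run short, and import also feeds mTORC1, the kinase complex that senses amino acids. Methionine, glycine and serine are linked to SAM itself, since methionine is its precursor and glycine is methylated by it in the liver.

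The promoters of both protein-coding genes are shown because SAM is a methyl donor and methylation in human promoters falls on CG dinucleotides, which are in capitals. The sequences are from RefSeq (GRCh38.p14), which held a promoter for 2 of the 3 rows, and run from 250 bases before to 50 bases after the annotated start, 5′ to 3′ along the gene. The first is chr1:44031413-44031712 on the minus strand and the second chr17:74776249-74776548 on the plus strand.
SLC6A9: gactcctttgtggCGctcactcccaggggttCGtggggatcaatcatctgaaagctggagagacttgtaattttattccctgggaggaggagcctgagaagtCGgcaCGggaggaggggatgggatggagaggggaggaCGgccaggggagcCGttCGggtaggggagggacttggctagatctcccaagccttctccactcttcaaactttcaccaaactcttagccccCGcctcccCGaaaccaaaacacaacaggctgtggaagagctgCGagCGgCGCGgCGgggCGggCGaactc
SLC38A12: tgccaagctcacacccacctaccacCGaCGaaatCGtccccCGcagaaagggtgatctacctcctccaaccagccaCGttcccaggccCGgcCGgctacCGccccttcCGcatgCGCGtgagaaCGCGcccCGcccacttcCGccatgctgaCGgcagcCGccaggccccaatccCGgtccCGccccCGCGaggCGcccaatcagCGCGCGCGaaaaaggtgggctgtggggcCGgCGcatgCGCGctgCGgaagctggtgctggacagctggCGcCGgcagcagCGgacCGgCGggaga
The SLC6A9 promoter held 16 CG dinucleotides and was 60% G or C, close to the median of 14 over 35116 RefSeq promoters of the same length, of which 52.5% held fewer. The SLC38A12 promoter held 36 and was 71.3% G or C, and 87.3% of promoters held fewer. Methylation was not measured on these arrays. The letters TGATGNAAN, a spelling of the amino acid response element that ATF4 binds, were searched on both strands and were in neither promoter window (0 matches each), while 3.61% of all promoters held them.

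SLC6A9 encodes GlyT1, the sodium- and chloride-coupled glycine transporter best known for clearing glycine around synapses and for supplying it to developing red cells. Its log2 signal was 7.04, 7.25 and 7.12 in the 3 SAM arrays, against 7.78, 8.06 and 7.93 in the 3 Control arrays. Every SAM array lay under every Control array, and the gap between the highest SAM array and the lowest Control array was wider than the spread inside either group. The mean was 7.14 ± 0.109 in SAM-treated cells and 7.92 ± 0.143 in Control cells (SD, n = 3 arrays each), a log2 difference of -0.79 (SE 0.135), or 1.73-fold lower with SAM. As the row was named by the study for its change, nothing is rested on this size. Leaving out each array in turn gave log2 differences between -0.86 (without Control replicate 1) and -0.72 (without Control replicate 2), a description of values that had already served to choose the row. The mean signal was above that of 90.3% of all transcript clusters. Levels of different probes cannot be ranked, so this does not show how much of the RNA was present. A lower signal in a whole culture cannot tell less RNA in every cell from fewer cells that carry it.

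**Figure D1:**
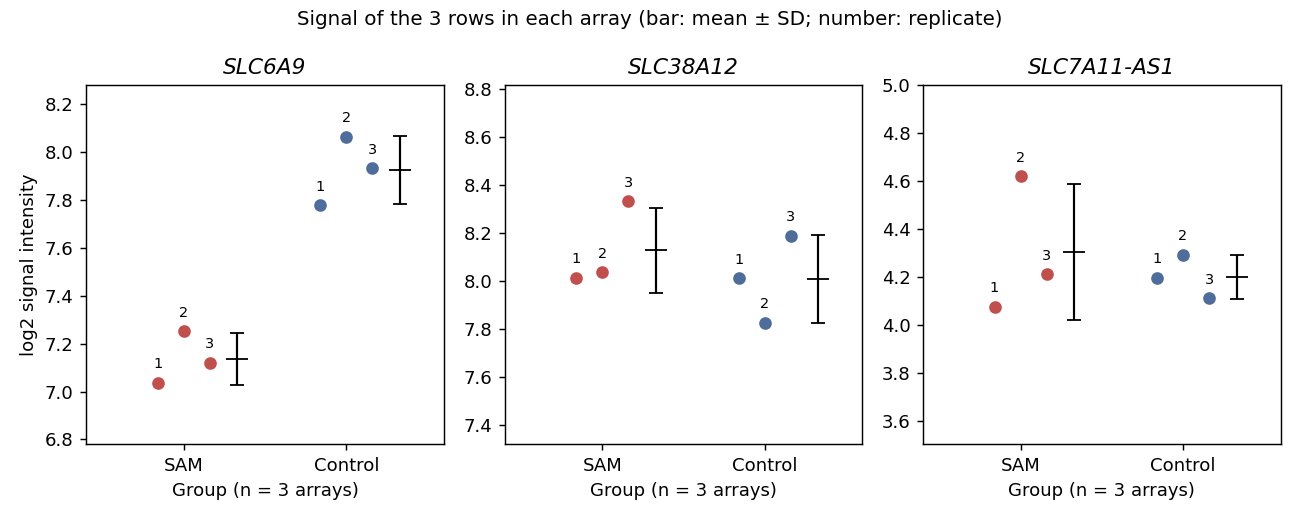
Log2 signal intensity (vertical axis, 1.5 units in each panel) of SLC6A9, SLC38A12 and SLC7A11-AS1 in the SAM arrays (left, red) and Control arrays (right, blue), with the replicate number over each point and the mean ± SD beside it (n = 3). The groups are apart for SLC6A9, 7.04 to 7.25 against 7.78 to 8.06, and overlap for the other two.

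SLC38A12, listed earlier as TMEM104, is placed in the SLC38 family of neutral amino acid carriers by its symbol. Its log2 signal was 8.01, 8.04 and 8.33 in SAM arrays, against 8.01, 7.83 and 8.19 in Control arrays. The groups overlapped, and the highest value of each was that of replicate 3. The mean was 8.13 ± 0.178 with SAM and 8.01 ± 0.182 in Control cells (SD, n = 3 each). The log2 difference of 0.12 (SE 0.155) did not pass the study's thresholds, an unadjusted P under 0.01 and a fold change over 1.5 (adjusted p = 0.845, limma over all transcript clusters with Benjamini-Hochberg adjustment). Its 95% interval ran from -0.24 to 0.48, which leaves room for a rise of up to that size and for a small fall. The mean signal of the row was above that of 93.5% of transcript clusters, which again does not rank RNA levels.

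SLC7A11-AS1 is the antisense RNA gene of SLC7A11, the cystine and glutamate exchanger that supplies cysteine for glutathione. The locus overlaps that of SLC7A11 in RefSeq, and the signal of this row is not a reading of the transporter. Its log2 signal was 4.08, 4.62 and 4.21 in SAM arrays, against 4.20, 4.29 and 4.11 in Control arrays. Only SAM replicate 2 stood above the Control range, and SAM replicate 1 stood below it. The mean was 4.30 ± 0.284 with SAM and 4.20 ± 0.0911 in Control cells (SD, n = 3 each), a log2 difference of 0.10 (SE 0.168, adjusted p = 0.883 in limma) with a 95% interval from -0.29 to 0.49. Without SAM replicate 2 the difference was -0.06, so that 1 array set its sign. The row was dim, under the median of every array and above 37.8% of transcript clusters.

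Of the 2 rows named by the platform annotation, and not by the study's list of changed transcripts, 0 passed both thresholds. Over all transcript clusters the thresholds passed 1.09%, and none of the 53617 (0) had an adjusted p under 0.05 in limma, while 4285 had an unadjusted P under 0.05. The SAM and Control arrays did not overlap for SLC6A9 alone among the 3 rows. They did not overlap for 18.5% of annotated symbols, and the choice of SLC6A9 fixed this count, so nothing is read from it. The median log2 difference over the 3 rows was 0.10, beside -0.02 over all annotated symbols. That median is the value of SLC7A11-AS1, a dim noncoding row, and does not describe the transporters as a group. With 3 arrays a group an exact permutation test (two-sided) cannot go under p = 0.1, and it gave 0.4 for SLC38A12 and 0.8 for SLC7A11-AS1.

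Other amino acid carriers, outside the families, are the nearest comparison for these rows. Of 25 genes of mitochondrial, vesicular and lysosomal amino acid transport and of partner proteins, 7 had a named row, and 0 rose and 0 fell past both thresholds (of annotated symbols 0.699% passed, 0.161% as rises). The count at an unadjusted P under 0.05 (limma) was also 0, where 8.22% of annotated symbols were. Their log2 differences ran from -0.23 for SFXN3, of the sideroflexins of mitochondria, to 0.20 for CLTRN, the partner of SLC6 carriers in kidney. SFXN1, a mitochondrial serine transporter, had a difference of 0.18 (SE 0.192). SLC66A1, which carries cationic amino acids out of lysosomes, had a log2 signal of 6.42, 6.28 and 6.76 in SAM arrays, against 6.57, 6.46 and 6.64 in Control arrays. The groups overlapped in all 7. They did not overlap for 18.5% of annotated symbols, so with so few genes nothing is read from this count. None of the 7 was named through the study's list of changed transcripts as SLC6A9 was, but the lists were chosen with earlier results of these data known.

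**Figure D2:**
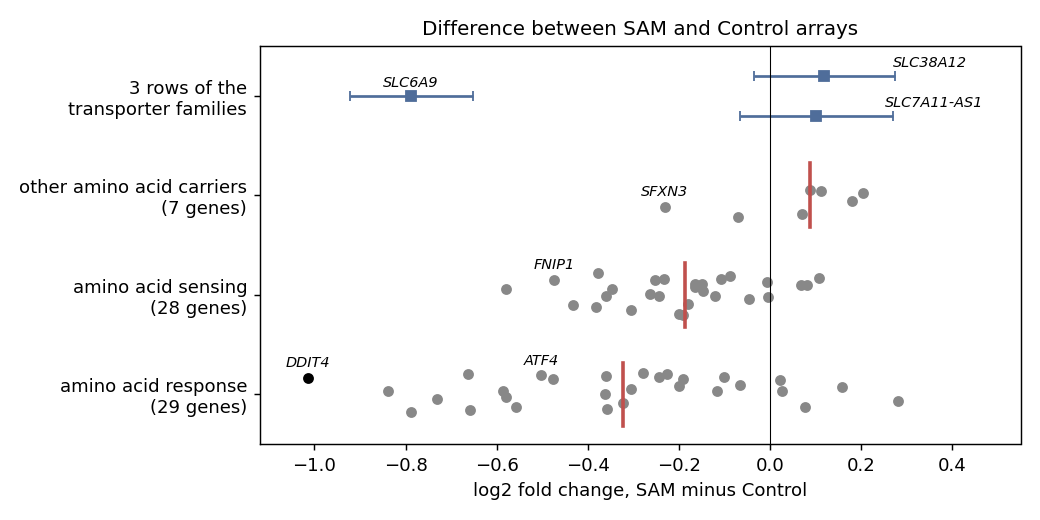
Log2 fold change, SAM minus Control (horizontal axis), of the 3 rows (blue squares, with the SE as bars) and of the genes of 3 lists (points; black where both thresholds were passed; red line, median). SLC6A9 sits at -0.79, but it was named for its difference on these arrays, so nothing is read from its place. The list medians are 0.09 for other carriers, -0.19 for amino acid sensing and -0.32 for the amino acid response. Single genes of the response list run from -1.01 to 0.28.

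The genes of the ATF4 amino acid response were read as a list of their own, since several amino acid transporter genes are known ATF4 targets. Nothing about SLC6A9, which was named for its difference, is read from this list. Of 38 genes of that response, 29 had a named row, of which 0 rose and 1 fell past both thresholds (0.537% of annotated symbols fell). The 1 was DDIT4, an inhibitor of mTORC1 induced by stress, at 9.02, 8.83 and 8.58 in SAM arrays, against 9.88, 10.41 and 9.19 in Control arrays (log2 difference -1.01, SE 0.296, adjusted p = 0.574 in limma). Removing any of 5 arrays ended this call (the difference was -0.72 once Control replicate 2 was dropped), as did the methods' t-test, a second quantile normalization and cyclic loess. ATF4 itself had 8.961, 9.083 and 8.998 in SAM arrays, against 9.361, 9.627 and 9.561 in Control arrays, a difference of -0.50 (SE 0.129, adjusted p = 0.565 in limma), under the fold threshold. VLDLR, a lipoprotein receptor gene on the list, had a difference of -0.79 (SE 0.251) and missed the P threshold.

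Control replicate 2 was the highest of the 6 arrays for 22 of the 29 response genes (75.9%), and for 16.3% of annotated symbols. In ASNS, the asparagine synthetase that is a standard marker of the response, it read 8.64, while the SAM arrays read 6.74, 7.14 and 6.37 and the other Control arrays 7.004 and 6.801. In CTH, an enzyme of cysteine synthesis from methionine, it read 8.70, while the SAM arrays read 6.27, 6.64 and 5.99 and the other Control arrays 6.33 and 6.38. TRIB3, a pseudokinase that damps ATF4, showed the same order, with 8.78 on that array and 6.88 to 7.14 on the 5 others. These 3 genes were picked after their values were seen. With all arrays the 29 genes had a median log2 difference of -0.32, 24 of them negative, beside 8061 of 14884 annotated symbols. Without Control replicate 2 the median was -0.05, with 18 negative, beside 8211 of 14884 annotated symbols. ASNS, CTH and TRIB3 then had differences of -0.15, -0.06 and -0.01. For SLC6A9, which was named for its difference on these arrays, the value without that array was -0.72, given as a description. ATF4 kept a difference of -0.45 (SE 0.147) without it. What set Control replicate 2 apart was not tested.

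**Figure D3:**
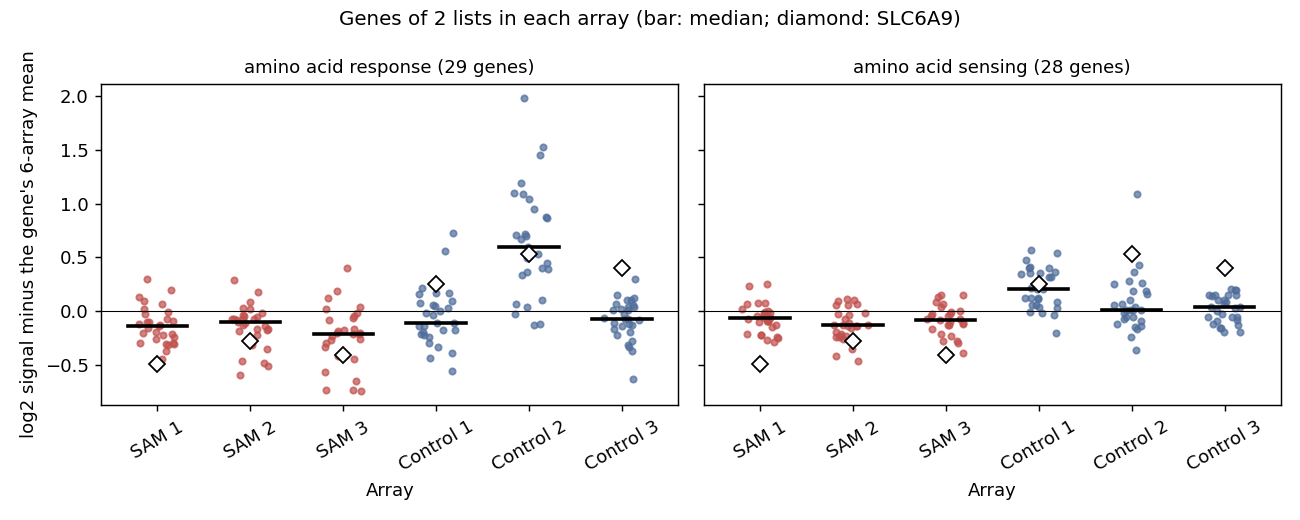
Log2 signal minus the gene's mean over the 6 arrays (vertical axis) for each amino acid response gene (left) and amino acid sensing gene (right) in each array, SAM in red and Control in blue, with the median as a bar and SLC6A9 as a diamond. The response genes stand high in Control replicate 2 (median 0.59). SLC6A9, named for its difference, is at 0.25, 0.53 and 0.40 in the Control arrays.

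Both thresholds were passed by 0.699% of annotated symbols, so a count of 0 in a short list says nothing about its genes. None of the measured genes through which mTORC1 senses amino acids and SAM passed both. Of 38 such genes, which share SESN2 with the response list, 28 had a named row, of which 0 rose and 0 fell, and 2 were at an unadjusted P under 0.05 in limma, where 8.22% of annotated symbols were. FNIP1, a partner of folliculin at the lysosome, had log2 signals of 7.44, 7.58 and 7.45 in SAM arrays, against 7.93, 8.15 and 7.81 in Control arrays (difference -0.47, SE 0.139, adjusted p = 0.574 in limma). KPTN, a subunit that holds the GATOR complex at the lysosome, had a difference of -0.43 (SE 0.176), and CASTOR1, an arginine sensor, one of -0.38 (SE 0.167). SAMTOR, the protein through which mTORC1 senses SAM, was named outside the rule, with 5.68, 5.52 and 5.28 in SAM arrays, against 6.09, 5.95 and 5.59 in Control arrays. Its groups overlapped, and the difference of -0.38 (SE 0.177) did not pass (adjusted p = 0.644 in limma). Over the list the median was -0.19, with 25 of 28 negative, beside 8061 of 14884 annotated symbols. The activity of mTORC1 was not measured, and the shared sign is not a reading of it. Control replicate 1 was the highest array for 17 of the 28 (60.7%), against 29% of annotated symbols, and without it the median was -0.12.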

How the data were processed

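The series holds 6 Affymetrix Human Gene 2.0 ST arrays of MDA-MB-231 cells, 3 SAM and 3 Control. The authors processed them with RMA in the Bioconductor package oligo (version not given in the sources used here), which corrects background, quantile-normalizes across arrays and gives 1 summary per transcript cluster, and deposited them as log2 signal intensities. No filter was stated and none was applied.

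SAM was compared with Control over all 53617 transcript clusters by the lmFit and eBayes functions (limma 3.58.1, R 4.3.3), without a covariate or block. A call needed a fold change over 1.5 in either direction and an unadjusted P under 0.01, as in the methods, with Benjamini-Hochberg adjustment beside them. For a symbol with several transcript clusters the one with the highest mean was used, and each of the 3 rows reported has 1. Symbols came from the platform annotation, and that of SLC6A9 from the study's list of changed transcripts, whose fold changes and P values were not used. The procedure was tested on simulated data. The number of arrays limits the precision. A limma p-value sets a group difference against the spread between arrays, which eBayes moderates over all rows. The arrays are of 1 cell line, so it does not speak for other lines or tumours.

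The members and the lists were chosen with earlier results of these data known. The genes named are all 3 rows, the members of each list that passed both thresholds, up to 3 members of each list with the smallest P, and a few named beside their values. The alternatives tried were leaving out dim rows or rows without a symbol, other normalizations, a trended and robust eBayes, the methods' t-test, a replicate block, averaging rows, other thresholds and leaving out each array.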

Additional observations from a re-analysis of the deposited data

How the results depend on the processing

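SLC38A12 stayed short of both thresholds in all 15 alternatives (log2 difference 0.02 to 0.21). SLC6A9, chosen for its difference on these arrays, ran between -0.86 and -0.72, a description only. SLC7A11-AS1 lay between -0.058 and 0.22 without 1 array and turned negative only without SAM replicate 2; with dim rows left out it had no value, and so neither had the median of the 3 rows. That median ran between -0.058 (without SAM replicate 2) and 0.18 without 1 array (0.02 without SAM replicate 3). Without 1 array, SFXN1 ran between -0.023 (without Control replicate 2) and 0.33, and CLTRN between -0.036 (without Control replicate 3) and 0.34. The count of amino acid response genes past the thresholds (1) was 0 to 2 without 1 array. It was 2 with no fold minimum and 0 at an adjusted p under 0.05 in limma. At an unadjusted P under 0.05 in limma it was 4 of 29, and that of sensing genes (0) became 2 of 28. Of annotated symbols 8.22% were under that P. Leaving out single arrays for the medians of the lists was chosen after seeing the data.

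The arrays share replicate numbers, but nothing states that a number marks 1 experiment. Same-numbered arrays deviated from their group means with correlations of -0.00267, -0.0748 and 0.109, and 2 of the 6 arrays correlated best with their own number. With the replicate number as a block, 659 transcript clusters passed both thresholds, against 582 without it, with 2 response genes (DDIT4 and VLDLR). The block changed no call of the 2 rows named by the platform annotation. Dim rows such as SLC7A11-AS1 and CLTRN are limited by their signal over background.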

Other observations

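The nearest genes with a named row around the 3 loci in RefSeq, not all of them adjacent, were read after the values of the rows had been seen. CCDC24, whose locus overlaps that of SLC6A9, had a mean log2 signal of 5.83 in SAM arrays and 5.88 in Control arrays (log2 difference -0.05, SE 0.117), and KLF17, on the other side, had a difference of 0.10 (SE 0.237). The nearest named genes around SLC38A12, CD300LF and USH1G, had differences of 0.54 (SE 0.251) and 0.28 (SE 0.159). LINC00616, a noncoding gene whose locus overlaps that of SLC7A11-AS1, had a mean of 3.43 in SAM arrays and 3.03 in Control arrays (difference 0.40, SE 0.123, adjusted p = 0.575 in limma), at a signal below the median of every array. None of these passed both thresholds.

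The letters TGATGNAAN were present in the promoter window of 7 of the 26 response genes with a RefSeq promoter (26.9%), among them ASNS, ATF3 and GARS1, beside 3.61% of all promoters. The match was searched on both strands and is a description of the sequence. The list was put together as genes of the ATF4 response, and the letters are a site that ATF4 binds. A higher share than over all promoters can come from that choice alone, so nothing is read from it.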
